A study of Mus musculus with 30 samples.

Results

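The intronless protein-coding genes of the pre-implantation mouse embryo are described here. They were chosen as the protein-coding genes of GENCODE vM21 in which every annotated transcript has a single exon and whose mean CPM (raw counts scaled by the summed gene counts of the library) reached 5 over the 23 embryos sequenced. Clustered histone genes, mitochondrial genes, olfactory and vomeronasal receptors and ribosomal protein genes were left out by symbol. Of 21974 coding genes in the count tables, 1305 had a single exon in every transcript, 255 of these were left out by symbol and 953 lay below the CPM floor, so that 97 genes remained. The genes were thus selected on their measured mean CPM, null embryos included, and their being expressed is not a result. With the mean taken over wild-type and heterozygous embryos alone, 87 of the 97 would still have reached 5 CPM, and the other 10, among them Mageb3, Gm9887 and Gm9958, entered through their level in null embryos. At the floor, Gm7102 at 5.10 CPM, Fzd9 at 5.14 and Irf2bp1 at 5.25 were the last genes inside, while Arxes2 at 4.94, AC153137.1 at 4.93 and Rimbp3 at 4.91 were the first outside.

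An intronless gene is copied into RNA that needs no splicing before it is exported. Many such genes are retrocopies, made when a spliced mRNA was reverse transcribed and inserted elsewhere, while others, such as Jun, are long-standing genes without introns. DIS3 is a ribonuclease subunit of the nuclear RNA exosome, which degrades faulty RNAs and the short-lived transcripts that arise upstream and antisense of promoters.

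The embryos came from matings of Dis3 heterozygous mice, whose null allele lacks exons 3–5 after CRISPR-Cas9 cutting and end joining, with superovulated mothers. Single embryos at E2.5 gave 6 wild-type (WT), 2 het and 4 null libraries, and at E2.75 they gave 3 WT, 5 het and 3 null libraries, so that with stages combined there were 9 WT, 7 het and 7 null embryos. Genomic DNA of each embryo set its genotype, and its polyA RNA was captured with oligo-dT beads after ERCC spike-in RNA had been added. A second experiment mapped POU6F1-mCherry on chromatin of mouse embryonic stem cells (mESCs) 48 h after transfection. The comparison of null with het embryos asks which transcripts accumulate without DIS3. Litters were not given, and p-values measure the spread between these single embryos.

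Libraries held 1690192 to 14015980 gene counts, and 2 of the 3 E2.75 null libraries, with 1690192 and 1914128, were the smallest of all. Dis3 itself stood at 18.0 to 147 normalised CPM in WT embryos, 30.4 to 59.2 in het embryos and 0 to 21.5 in null embryos. The lowest WT value, 18.0 in E2.5 WT replicate 6, lay inside the null range, and without that library the members called in null against WT embryos numbered 16 instead of 14. All 10 early-embryo markers were detected. The summed level of 12 markers of cumulus and granulosa cells, which the methods describe removing with hyaluronidase from embryos for culture, was 106 to 278 raw CPM in WT, 158 to 396 in het and 185 to 416 in null embryos. Nr5a2, which early embryos also express, made up nearly all of it. The other 11 markers summed to 0 to 21.1 in WT, 0.433 to 10.7 in het and 0.463 to 24.5 in null embryos, and Inha, Ptx3 and Cyp11a1 were at 0 throughout. Of the 12, 2 reached 1 CPM in any WT embryo, 3 in any het and 5 in any null embryo. Summed, 6 markers of oocytes and polar bodies had medians of 31.7 raw CPM in WT, 15.0 in het and 38.3 in null embryos. Their ranges overlapped between the genotypes, and the part of either marker list in the results was not tested. In null libraries 32.3% to 43.9% of reads fell outside annotated exons, where WT and het libraries had 21% to 33.4%. This difference moves with the genotype, and its part in the changes described here was not tested. Values below are TMM-normalised CPM unless raw CPM is named. In each embryo, fewer cells and less RNA per cell cannot be told apart.

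Intronless genes leaned upward in null embryos. A gene was called when its adjusted p in edgeR's quasi-likelihood test was under 0.1 and its change exceeded 2-fold. Against het embryos, 13 of the 97 genes (13.4%) were called higher and 0 lower, where 3.67% of the 13415 genes tested were called higher and 2.06% lower. Spliced coding genes at the same CPM floor, 8670 of them tested, gave 131 higher (1.51%) and 233 lower (2.69%). The median log2 fold change was 0.53 over the intronless genes, 0.02 over all genes tested and −0.08 over the spliced coding genes, and 70 of the 97 were positive. For the downward side, 2 of the 28 members with an unadjusted p under 0.05 in edgeR fell, and DESeq2 also called 0 members lower. Of the 87 genes that reached the floor in WT and het embryos alone, 10 were called higher and the median was 0.38. The share of all genes called at that same floor is not given, so this count cannot be read against 3.67%. The stages were unequally split between null and het embryos. With stage as a term, the median over the 97 genes was 0.39, and 12 were called higher beside 3.62% of all genes.

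These values are relative to the rest of the transcriptome. When libraries were scaled to the ERCC spike-in instead, the all-gene median of the log2 fold change moved to −1.08 and the members' median to −0.60, and 6 members were called higher and 20 lower, where 2.15% of all genes were called higher and 33.4% lower. Against WT, 8 members were then called higher and 1 lower, where 2.36% of all genes were higher and 3.5% lower. The calls of B3galt6, Tmem203, Rnf113a2, Eid2b, Mocs3, Purb and Mcts2, described below, were lost on that scale.

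**Figure D1:**
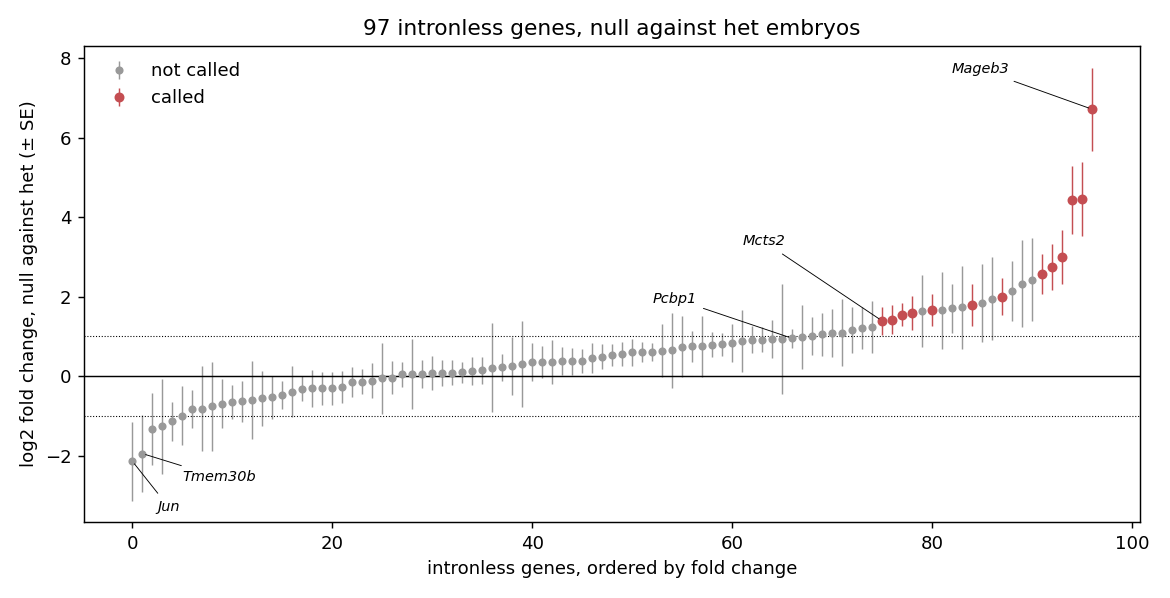
Log2 fold change of null against het embryos (y axis, with the standard error as bars) for the 97 intronless genes in order of size (x axis), with called genes in red and dotted lines at the 2-fold limits. The 13 called genes all lie above 0, from Mcts2 at 1.39 to Mageb3 at 6.72, while Jun at −2.13 is lowest and was not called.

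The 3 largest changes were in Mageb3, Gm9887 and Gm9958, which reached the CPM floor through null embryos, so that the choice of members had part in their difference. Mageb3 (chr2:121953752-121956092, GRCm38, minus strand) belongs to the MAGE family, whose members are typical of germ cells. Its level was 0 to 1.01 CPM in the 9 WT embryos with a median of 0.327, 0 to 1.21 in the 7 het embryos with a median of 0.0928, and 6.23 to 71.2 in the 7 null embryos with a median of 19. No null embryo overlapped an embryo of another genotype. The log2 fold change against het was 6.72 ± 1.05 (SE, edgeR adjusted p = 0.000402). Since 61.7% of the Mageb3 exon is matched elsewhere in the genome at 98% identity or more, chiefly by Mageb2, whose counts averaged 0.760 CPM in null embryos, the split of reads between such copies is uncertain.

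Gm9887 (chr12:69371835-69372458, minus strand) is a predicted gene that starts head to head with Arf6, a small GTPase of membrane traffic. Its level was 0 to 3.89 CPM in WT embryos (median 0.532), 0.0830 to 2.14 in het embryos (median 1.16) and 11 to 43.9 in null embryos (median 18.8). All null embryos were above all others, with a log2 fold change of 4.46 ± 0.92 against het (SE, edgeR adjusted p = 0.00537). Its exon overlaps Arf6 on the other strand and the counting ignored strand, so reads inside exons of both genes were counted for neither. Arf6 changed by 0.27 ± 0.32 (SE) and was not called.

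Gm9958 (chr5:90367204-90368487, plus strand) begins 627 bases from the start of Ankrd17, which encodes an ankyrin-repeat protein and runs the other way. It measured 0.206 to 12.2 CPM in WT embryos (median 4.16), 0 to 7.70 in het embryos (median 0.904) and 20.1 to 165 in null embryos (median 51.8). The null range again lay above both others. Its log2 fold change against het was 4.43 ± 0.85 (SE, edgeR adjusted p = 0.00287), and that of Ankrd17 was 0.55 ± 0.27 (SE), which was not called.

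The next 3 genes also separated null from het embryos fully. 2310039H08Rik (chr17:46772635-46773396, plus strand), an uncharacterised gene inside an intron of Gm26904, reached 0.507 to 21.1 CPM in WT embryos (median 4.34), 1.95 to 19.9 in het embryos (median 6.09) and 20.5 to 85.6 in null embryos (median 58.1), so that null and het embryos did not overlap but the lowest null embryo lay just under the highest WT embryo. It rose by 3.01 ± 0.68 on the log2 scale against het (SE, edgeR adjusted p = 0.00961). Sft2d3, which encodes a membrane protein related to yeast Golgi transport factors, stood at 0.490 to 19.8 CPM in WT embryos (median 4.66), 6.72 to 13.9 in het embryos (median 8.09) and 29.9 to 94.7 in null embryos (median 55.7). Every null value of Sft2d3 exceeded every other, and its log2 fold change was 2.75 ± 0.57 (SE, edgeR adjusted p = 0.00551). Gm37596 (chr3:93692050-93693070, minus strand) lies close to Tdpoz2 in a cluster of near-identical genes, and 99.8% of its exon is copied elsewhere, which leaves its count uncertain. It measured 1.94 to 11.1 CPM in WT embryos (median 5.86), 2.13 to 7.0 in het embryos (median 4.22) and 10.7 to 50.1 in null embryos (median 28.7). The lowest null embryo lay just inside the WT range, and the log2 fold change against het was 2.57 ± 0.50 (SE, edgeR adjusted p = 0.00295).

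Mocs3 (chr2:168230622-168232594, plus strand), a sulfur carrier activating enzyme needed for molybdenum cofactor and tRNA thiolation, stood at 15.2 to 46.6 CPM in WT embryos (median 19.5), 23.4 to 49.1 in het embryos (median 27.5) and 67.7 to 119 in null embryos (median 87.2). All 7 null embryos were above all 16 others. The log2 fold change was 1.55 ± 0.28 against het (SE, edgeR adjusted p = 0.00159) and 1.98 ± 0.26 against WT (SE, edgeR adjusted p = 3.8e-05).

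B3galt6 (chr4:155989466-155992649, minus strand) encodes a galactosyltransferase that builds the linker of proteoglycan sugar chains. WT embryos held 2.81 to 28.2 CPM (median 13.5), het embryos 5.37 to 49.7 (median 13.9) and null embryos 34.8 to 105 (median 67.5). A single het embryo reached into the null range. The log2 fold change was 2.00 ± 0.46 (SE, edgeR adjusted p = 0.0107).

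Tmem203 (chr2:25255439-25256292, plus strand), an endoplasmic reticulum protein, was at 1.45 to 12 CPM in WT embryos (median 7.72), 1.95 to 11.5 in het embryos (median 5.14) and 12.2 to 31.8 in null embryos (median 17.3). The groups met without overlapping, with a log2 fold change of 1.78 ± 0.53 (SE, edgeR adjusted p = 0.0567). This call was lost without a low-count filter, with stage as a term, with the replicate number as a block and without any 1 of 5 single embryos (E2.5 null replicates 3 and 4 and E2.75 het replicates 1, 4 and 5). Rnf113a2 (chr12:84417196-84418578, plus strand) is a RING finger gene whose spliceosomal relative is X-linked. WT embryos had 13.2 to 75.7 CPM of it (median 35.5), het embryos 9.84 to 56.4 (median 24.3) and null embryos 35.6 to 124 (median 82.6). The null embryos overlapped both other groups, with a log2 fold change of 1.66 ± 0.40 against het (SE, edgeR adjusted p = 0.0153) and 0.97 ± 0.36 against WT, where it was not called.

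Eid2b (chr7:28277739-28279489, plus strand), named for a family of EP300-interacting inhibitors of differentiation, measured 3.91 to 26.7 CPM in WT embryos (median 7.68), 5.47 to 14.5 in het embryos (median 8.48) and 18.5 to 34.4 in null embryos (median 28.1). Null and het embryos did not overlap, and 1 WT embryo lay in the null range. The log2 fold change was 1.59 ± 0.43 (SE, edgeR adjusted p = 0.0328), a call lost with the replicate number as a block.

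Purb and Mcts2 were the most abundant of the called genes. Purb (chr11:6467599-6475917, minus strand) encodes a protein that binds purine-rich single-stranded nucleic acids. Its levels were 86.6 to 505 CPM in WT embryos (median 238), 116 to 336 in het embryos (median 147) and 270.1 to 701 in null embryos (median 545). E2.5 embryos held more Purb than E2.75 embryos in every genotype by median, and the one het embryo inside the null range, at 336 CPM, was E2.5. With stages combined Purb rose by 1.42 ± 0.36 on the log2 scale (SE, edgeR adjusted p = 0.0207). With stage as a term the change was 0.99 and was no longer called, and within the stages it was 1.31 ± 0.40 at E2.5 and 0.85 ± 0.25 at E2.75, neither of them called.

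Mcts2 (chr2:152687035-152687946, plus strand) is an imprinted retrogene in an intron of H13, copied from Mcts1, whose protein acts in translation reinitiation. It measured 29.4 to 239 CPM in WT embryos (median 83.8), 27.6 to 98.4 in het embryos (median 59.4) and 105 to 277 in null embryos (median 140). Every null embryo exceeded every het embryo, while WT embryos overlapped the null range, and the log2 fold change was 1.39 ± 0.35 against het (SE, edgeR adjusted p = 0.0218) and 0.85 ± 0.33 against WT, which was not called.

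**Figure D2:**
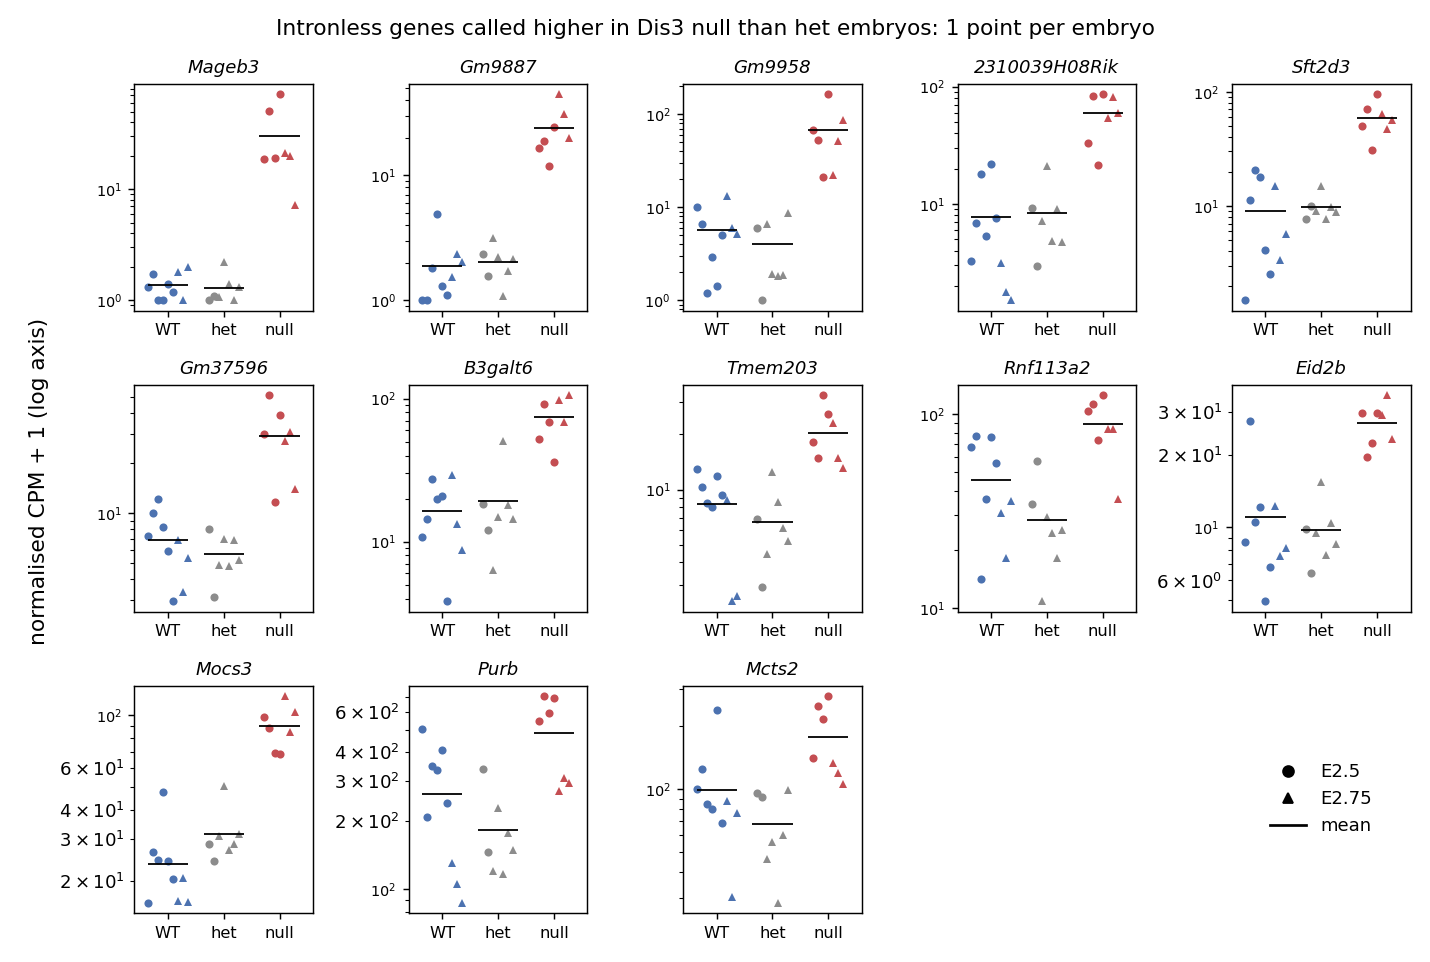
Normalised CPM plus 1 on a log axis (y axis) of the intronless genes called higher in null than het embryos, with 1 point for each WT, het and null embryo (circles E2.5, triangles E2.75), a line at the group mean and 1 panel for each gene. Mageb3 separates null embryos (6.23 to 71.2 CPM) from WT and het embryos (0 to 1.21 CPM), whereas Purb and Rnf113a2 overlap between genotypes.

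Over all 97 genes, every null embryo was above every het embryo in 11 genes (11.3%), where 2.2% of all genes tested separated in this way. Mageb3, Gm9887 and Gm9958 are among them and were partly chosen for it. Of the 87 members that reached 5 CPM over WT and het embryos alone, 8 separated (9.20%), beside 0.905% of all genes tested and 0.483% of spliced coding genes at that same floor. The reverse order was found in 0 members and 0.686% of all genes. The 11 were 10 of the called genes and Pcbp1. Pcbp1 (chr6:86524492-86526321, minus strand) encodes a poly(rC)-binding protein that regulates mRNA stability and translation. It stood at 214 to 588 CPM in WT embryos (median 290), 268 to 620 in het embryos (median 366) and 650 to 1029 in null embryos (median 822). The whole null group lay above the rest, by a log2 fold change of 0.95 ± 0.24 against het (SE, edgeR adjusted p = 0.0213), short of 2-fold. Against WT embryos the change was 1.23 ± 0.22 (SE) and was called.

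The comparison with WT embryos shares the null embryos with the one above. There 14 members were called higher and 0 lower (edgeR; 1 of the 32 members with an unadjusted p under 0.05 fell, and DESeq2 called 1 lower), with 3.66% of all genes called higher and 1.59% lower. Of the 14, 9 were also called against het. The others were Trmt12, which acts in the synthesis of the tRNA base wybutosine, with a log2 fold change of 1.78 ± 0.55 (SE), Tdpoz2, a gene of the TD and POZ domain family, at 1.68 ± 0.51, 1700029P11Rik at 1.63 ± 0.49, Pcbp1, and Ddx28, named only because it completed the list. Trmt12 held 1.03 to 19.7 CPM in WT (median 6.34) and 9.97 to 36.1 in null embryos (median 18.5). Tdpoz2 stood at 4.08 to 31.8 CPM in WT (median 10.1) and 13.7 to 101 in null embryos (median 35.9). In 1700029P11Rik, similar in coding sequence to Ndufb11 of the respiratory chain, WT embryos held 0.582 to 41.2 CPM (median 15.0) and null embryos 24.1 to 80.2 (median 47.6). All 3 genes overlapped between the groups, and the exon of Tdpoz2 is copied elsewhere over 99.0% of its length and that of 1700029P11Rik over 79.5%.

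edgeR called 0 members, and 0% of 13415 genes, between het and WT embryos, and DESeq2 also called 0 members, which does not show that their levels were equal. At an unadjusted p under 0.05, 5 members and 934 genes passed. The largest het to WT difference among the genes named here was in Jun, 1.86 ± 0.90 (SE, edgeR adjusted p = 0.705).

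Split by stage, 9 of the 13 members called against het were also called at E2.75, and Tmem203, Eid2b, Purb and Mcts2 were called at neither stage. At E2.5, with 2 het embryos, edgeR called 0 members and 0.0126% of 15904 genes in either direction, while 20 members had an unadjusted p under 0.05, 17 of them higher, and DESeq2 called 13 higher and 1 lower, where it called 3% of the 14985 genes with an adjusted p higher. At E2.75, 12 members were called higher and 0 lower by edgeR (0 lower also by DESeq2), where 2.51% of all genes were called higher and 2.31% lower. All 17 members with an unadjusted p under 0.05 at that stage were higher. The count at E2.75 fell to 7 without E2.75 het replicate 4 and to 6 without E2.75 null replicate 1. The medians over the members were 0.61 at E2.5 and 0.27 at E2.75, against 0.03 and −0.04 over all genes.

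The difference between the stages was tested itself, as an interaction. edgeR called 0 members and 0% of 18677 genes, DESeq2 called 0 members, and 5 members and 1234 genes had an unadjusted p under 0.05. Mageb3 changed by 9.15 ± 1.81 at E2.5 and 5.30 ± 1.30 at E2.75 on the log2 scale, and its interaction was not called (SE, edgeR adjusted p = 0.76). Sox21, a transcription factor active in early blastomeres, was called at E2.75 (2.04 ± 0.57, SE, edgeR adjusted p = 0.0735) and measured −0.50 ± 0.91 at E2.5, with an interaction of 2.50 ± 1.03 that was not called (SE, edgeR adjusted p = 0.741).

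Against WT embryos within stages, the counts were more fragile. At E2.5, 5 members were called higher (B3galt6, Gm9958, Mageb3, Mocs3 and Pigm) with 1.36% of all genes, and leaving out any 1 of the 10 embryos left 1 to 4, with 1 call left without E2.5 WT replicate 2, E2.5 WT replicate 3 or E2.5 null replicate 4. Pigm, a mannosyltransferase of GPI anchor synthesis, changed by 1.41 ± 0.36 at that stage (SE, edgeR adjusted p = 0.0858). At E2.75, 14 members were called higher with 2.19% of all genes, 9 without any 1 of the null embryos and 4 without E2.75 WT replicate 3. They included Sfn, at 1.89 ± 0.37 (SE), and Gm5617, at 4.27 ± 1.04 (SE). No member was called lower at either stage in edgeR, beside 0.459% of all genes at E2.5 and 2.35% at E2.75, where 3 of 26 members with an unadjusted p under 0.05 fell at E2.5 and 0 of 27 at E2.75, while DESeq2 called 1 lower at E2.5 and 0 at E2.75.

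The intronless genes took a small part of all counts, and that part was larger in null embryos. Summed, they held 0.510% ± 0.097 of gene counts in WT embryos (SD, n = 9), 0.606% ± 0.095 in het embryos (SD, n = 7) and 0.780% ± 0.075 in null embryos (SD, n = 7). The null embryos began at 0.696% and the het embryos reached 0.772%, so the groups overlapped, and the sums were not tested. Cldn4, which encodes a tight junction claudin, made up 16.6% of the members' counts, Sfn, an epithelial 14-3-3 protein, 9.17% and Pcbp1 7.82%. Without these 3 genes the shares were 0.344% in WT, 0.372% in het and 0.529% in null embryos.

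**Figure D3:**
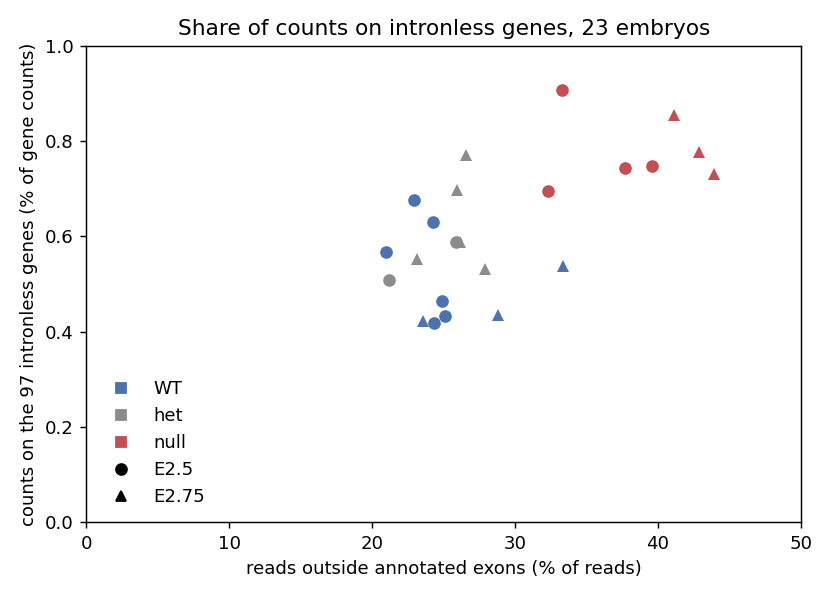
Share of gene counts on the 97 intronless genes (y axis, percent) against reads outside annotated exons (x axis, percent of reads), 1 point per embryo, with colour for genotype and shape for stage. Null embryos lie at 32.3% to 43.9% outside exons with member shares of 0.696% to 0.908%, and WT and het embryos at 21% to 33.4% with shares of 0.419% to 0.772%.

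The starts of these genes lay beside another gene about as often as those of spliced coding genes. An annotated start on the opposite strand lay within 1 kb of 34 of the 97 members (35.1%), and of 30.9% of spliced coding genes at the same floor. In an intron of a gene on their own strand lay 10 members (10.3%), and either arrangement was found for 42 members (43.3%). The shares counted for spliced genes were 16.5% and 42.6%. These also include spliced genes that hold another gene in their own introns, so they are not like for like. Among the 13 called members, 7 had an opposite start and 3 lay in an intron, 10 in all (76.9%), while 32 of the 84 other members had either (38.1%). This contrast was noticed among genes chosen for their change and has no test. Spliced coding genes called higher had either arrangement, counted in that wider way, in 37.4%.

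The pair Mocs3 and Dpm1 shows how close such starts are. Dpm1 encodes the catalytic subunit that makes dolichol-phosphate mannose. The sequence is chr2:168230571-168230642 of GRCm38.p6 on the strand of Mocs3, with the start base of Dpm1 as the left capital and that of Mocs3, 31 bases on, as the right capital.
Mocs3 and Dpm1 starts: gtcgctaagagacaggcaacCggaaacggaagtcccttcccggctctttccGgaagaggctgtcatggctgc
The window between B3galt6 and Sdf4, a calcium-binding protein of the Golgi lumen, is chr4:155992629-155992892 on the minus strand, where the starts are 223 bases apart and the left capital is Sdf4, the right B3galt6. It is shown because a short unit recurs along it and its GC content is 72.3%.
B3galt6 and Sdf4 starts: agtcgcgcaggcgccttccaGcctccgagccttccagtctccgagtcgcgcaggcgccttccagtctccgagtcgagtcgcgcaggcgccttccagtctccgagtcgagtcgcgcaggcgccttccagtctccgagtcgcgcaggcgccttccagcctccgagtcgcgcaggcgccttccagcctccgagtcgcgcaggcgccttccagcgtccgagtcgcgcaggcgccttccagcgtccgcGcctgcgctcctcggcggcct
Gm9958, in contrast, starts in sequence of 43.6% GC on the plus strand of chr5:90367104-90367204, with its start base in capitals.
Gm9958 start: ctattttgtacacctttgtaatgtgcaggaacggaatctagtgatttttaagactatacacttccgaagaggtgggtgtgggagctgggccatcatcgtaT

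Of 27 members with an opposite-start neighbour that could be tested, 1 neighbour was called higher in null against het and 0 lower in edgeR, where 3.67% of all genes tested were called higher. Beside the 7 called members, 0 neighbours were called, and their median log2 fold change was 0.55 where that of the members, which were chosen for a large change, was 2.00. Beside the 20 members not called, the neighbours' median was 0.38 and the members' 0.43, and the member had the larger value in 10 of 20 pairs. Sdf4 stood at 174 ± 50.3 CPM in het embryos (SD, n = 7) and 161 ± 37.4 in null embryos (SD, n = 7), a log2 fold change of −0.11 ± 0.22 (SE), beside 2.00 for B3galt6. Dpm1 went from 45.5 ± 17.9 to 70.8 ± 34.7 CPM (SD, n = 7 each), 0.63 ± 0.37 (SE) on the log2 scale, beside 1.55 for Mocs3. Ctdspl2, a phosphatase-like gene opposite Mageb3, measured 0.57 ± 0.26 (SE), and Ndor1, an oxidoreductase opposite Tmem203, 0.48 ± 0.57 (SE). The exception among the 7 was Gm11973, antisense to Purb, at 1.92 ± 0.72 (SE), above the value of Purb but not called. Differences between a gene and its neighbour were not tested.

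The 1 neighbour called was 1600020E01Rik, an antisense transcript that starts inside Pcbp1, which rose from 14.2 ± 5.32 CPM in het embryos to 70.4 ± 29.0 in null embryos (SD, n = 7 each), 2.30 ± 0.36 on the log2 scale (SE, edgeR adjusted p = 0.000433). Counting ignored strand, so reads of Pcbp1 and of this transcript cannot be told apart where they overlap. Reads inside exons of both were ambiguous and counted for neither. Exons of Mageb3, Gm9887, Tmem203 and Purb also overlap a gene on the other strand. Of the 60 members that overlap no other gene, 6 were called higher, with a median of 0.44.

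Among the 7 members whose host gene could be tested, 1 host was called higher, where 3.67% of all genes tested were. It was 5430405H02Rik, a processed transcript around 4930518I15Rik, at 2.52 ± 0.40 (SE, edgeR adjusted p = 0.000454), while 4930518I15Rik itself, at 2.15, was not called. H13, a signal peptide peptidase around Mcts2, changed by 0.12 ± 0.28 (SE), and Bbof1, around Rnf113a2, by −0.24 ± 1.30 (SE) at about 1 CPM.

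**Figure D4:**
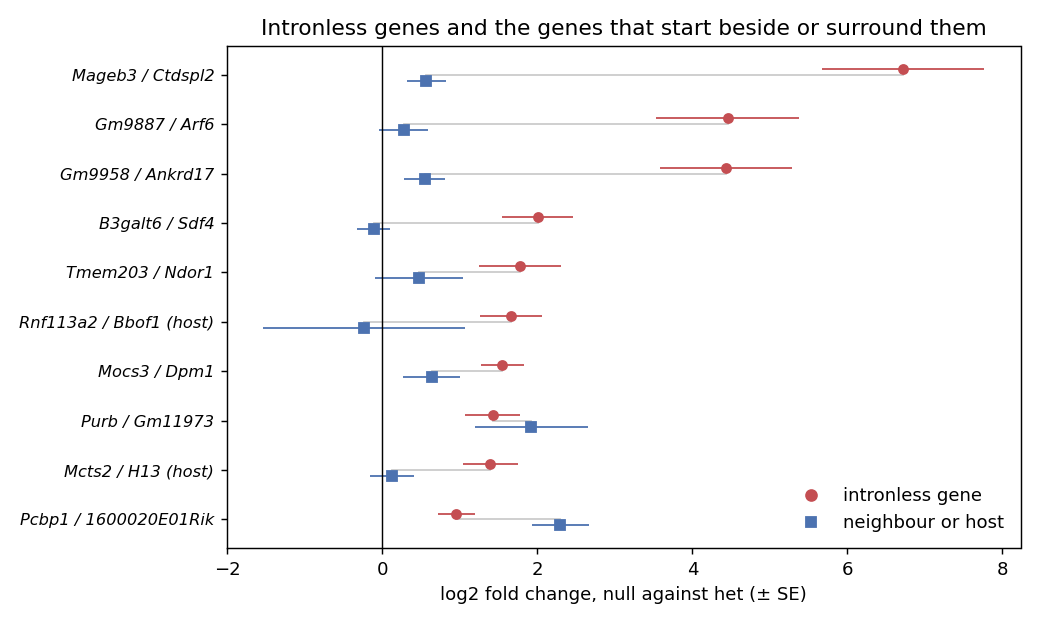
Log2 fold change of null against het embryos (x axis, bars are SE) for the called intronless genes with a tested neighbour, and Pcbp1 (circles), and the gene that starts on the opposite strand within 1 kb or hosts them in an intron (squares), 1 pair per row. Among these 10 pairs the circle lies to the right of the square except in those of Purb with Gm11973 (1.42 and 1.92) and Pcbp1 with 1600020E01Rik (0.95 and 2.30).

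Some members could be set beside a spliced gene of similar sequence, which need not be their source. A spliced gene with a similar coding sequence over at least 50% of its length was found for 33 of the 97 members, and 27 of these spliced genes were tested. Of them, 2 were called higher and 0 lower, where 3.67% of all genes tested were called higher. Their median was 0.02 and that of the intronless members of the pairs 0.74, or 0.57 over the 23 pairs whose member reached 5 CPM in WT and het embryos alone. Mcts1 changed by 0.28 ± 0.33 (SE) beside 1.39 for Mcts2, and Pura by −0.01 ± 0.23 (SE) beside 1.42 for Purb. The first 60 coding bases of Mcts2 and Mcts1, from GENCODE vM21 transcripts, differ at 8 positions, in capitals.
Mcts2: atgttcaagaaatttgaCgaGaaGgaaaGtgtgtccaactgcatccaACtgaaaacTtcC
Mcts1: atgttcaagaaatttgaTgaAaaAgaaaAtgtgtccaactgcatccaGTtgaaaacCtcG
The same stretch of Tpm3-rs7 and Tpm3, a tropomyosin of the actin cytoskeleton, has 0 differences.
Tpm3-rs7: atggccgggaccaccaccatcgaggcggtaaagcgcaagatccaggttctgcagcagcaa
Tpm3: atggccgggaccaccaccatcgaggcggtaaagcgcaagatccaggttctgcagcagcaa
In 17 members over 50% of the exon is copied elsewhere at 98% identity or more over 50-base windows, among them Tpm3-rs7 (97.8%), Imp3 (77.2%) and Sfn (73.3%). Of the other 80 members, 11 were called higher in null embryos.

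Few members of the gene lists were called. Of 11 members among RNA and ribosome factors, 1 (Purb) was called higher against het and 0 lower, with a median of 0.61 beside 0.02 over all genes. Hnrnpa0, an RNA-binding protein of mRNA processing, changed by 1.00 ± 0.48, Imp3, of the U3 small nucleolar ribonucleoprotein, by 0.92 ± 0.31 and Trmt12 by 1.16 ± 0.58 (SE each), and none of these was called. Stages were unequal in the comparison, and within E2.5 and E2.75 the values were 0.61 and 0.09 for Hnrnpa0 and 1.08 and −0.03 for Imp3. Utp3, a ribosome biogenesis factor outside that list, changed by 0.61 ± 0.26 (SE). Imp3 was called higher when the 2 smallest null libraries were left out, at 1.16. Among 4 BTB, kelch and ubiquitin genes 1 was called (Rnf113a2), and among 3 retrogenes of imprinted or X-linked families 1 (Mcts2), with Zrsr1 at 0.98 and Tspyl1 at 0.75, where 3.67% of all genes tested were called higher. The junction list held Cldn4, with 556 to 1870 CPM in het (median 1114) and 508 to 1754 in null embryos (median 601), −0.31 ± 0.41 (SE). The heat shock list had 0 members at the floor.

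The 4 transcription factors of early embryos were called in neither direction with stages combined. At E2.75 alone, Sox21 was called higher against het and Foxe1 against WT. Foxe1, a forkhead factor, changed by 0.60 ± 0.33, Thap11, which maintains pluripotent cells, by −0.99 ± 0.74, and Zfp830 by −0.11 ± 0.43 (SE each). Of the variant histones, H1f0, a linker histone, changed by 0.93 ± 0.48 and H2afx, phosphorylated at DNA breaks, by −0.31 ± 0.32 (SE each). Neither was called.

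Of the early response genes, Jun and Ier2 were not called against het. Jun, a subunit of the AP-1 transcription factor, was at 0.291 to 25.4 CPM in WT embryos (median 7.84), 10.6 to 68.8 in het embryos (median 25.0) and 0 to 24.6 in null embryos (median 3.74). Het embryos were higher than both other genotypes by median, and all 3 groups overlapped. The log2 fold change was −2.13 ± 1.00 against het (SE, edgeR adjusted p = 0.263) and −0.28 ± 0.91 against WT, neither called. With 1 embryo left out at a time the value against het ranged from −3.06 to −1.70, and Jun was called lower in 1 of these 14 fits, the one without E2.75 null replicate 2. With both of the smallest null libraries left out, the log2 fold change of Jun, null against het, was −3.48, again called. Ier2, an immediate early gene, changed by −0.46 ± 0.35 (SE). Of 15 early response genes with introns, 0 were called higher and 1 lower, where 276 of the 13415 genes tested were called lower.

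With stage, in WT embryos, more members were lower than higher. Between E2.5 and E2.75, 12 members were called lower (12.4%), where 3.64% of all 18677 genes and 6.41% of spliced coding genes at the same floor were called lower, and 1 was called higher, beside 3.74% of all genes and 4.34% of the spliced ones. The median was −0.59 over members and 0.00 over all genes. Hnrnpa0 was at 346 to 606 CPM in the 6 E2.5 WT embryos (median 441) and at 71.3, 76.9 and 128 in the 3 E2.75 WT embryos. The stages did not overlap, and the log2 change was −2.34 ± 0.27 (SE, edgeR adjusted p = 7.2e-05). Null embryos showed the same order, at 555 to 832 CPM at E2.5 and 161 to 184 at E2.75, as did het embryos, at 392 and 500 and at 119 to 189. Purb was at 206 to 505 CPM at E2.5 and 86.6, 105 and 130 at E2.75, a change of −1.67 ± 0.31 (SE, edgeR adjusted p = 0.00258). Null embryos at E2.75 held 270.1 to 307 CPM of Purb.

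Tpm3-rs7 spread widely at E2.5, from 2.61 to 77.0 CPM in WT embryos, and stood at 0.710, 0.799 and 1.56 at E2.75, a log2 change of −5.10 ± 1.14 (SE, edgeR adjusted p = 0.00991). In E2.75 null embryos it was at 4.93, 34.4 and 35.9 CPM and in E2.75 het embryos at 0.971 to 2.71. That gave a call of 4.11 ± 0.79 at E2.75 (SE, edgeR adjusted p = 0.0156), with the reservation that its reads match Tpm3, which changed by −0.57 ± 0.24 (SE) with stages combined. Mars2, the mitochondrial methionyl-tRNA synthetase, rose with stage, from 17.6 to 45.8 CPM at E2.5 to 53.6, 74.1 and 106 at E2.75, by 1.38 ± 0.38 on the log2 scale (SE, edgeR adjusted p = 0.0323). Null embryos had 12.5 to 25.7 CPM of Mars2 at E2.5 and 78.4 to 103 at E2.75. In het embryos the stages overlapped, at 31.5 and 64.4 CPM at E2.5 and 37.0 to 101 at E2.75.

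The other members called lower with stage were 0610012G03Rik (−1.03), 2310039H08Rik (−3.14), Chmp1b (−1.82), Foxe1 (−1.30), Gm5617 (−2.77), H1f0 (−1.93), Klhl9 (−1.15), Sephs2 (−1.58) and Sfn (−1.14). The number lower fell to 6 without E2.5 WT replicate 5 and to 7, 4 and 5 without E2.75 WT replicates 1, 2 and 3. With ERCC scaling 2 were called lower and 8 higher, where 0.316% of all genes were lower and 17.2% higher. Mars2 was no longer called without E2.75 WT replicate 1.

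**Figure D5:**
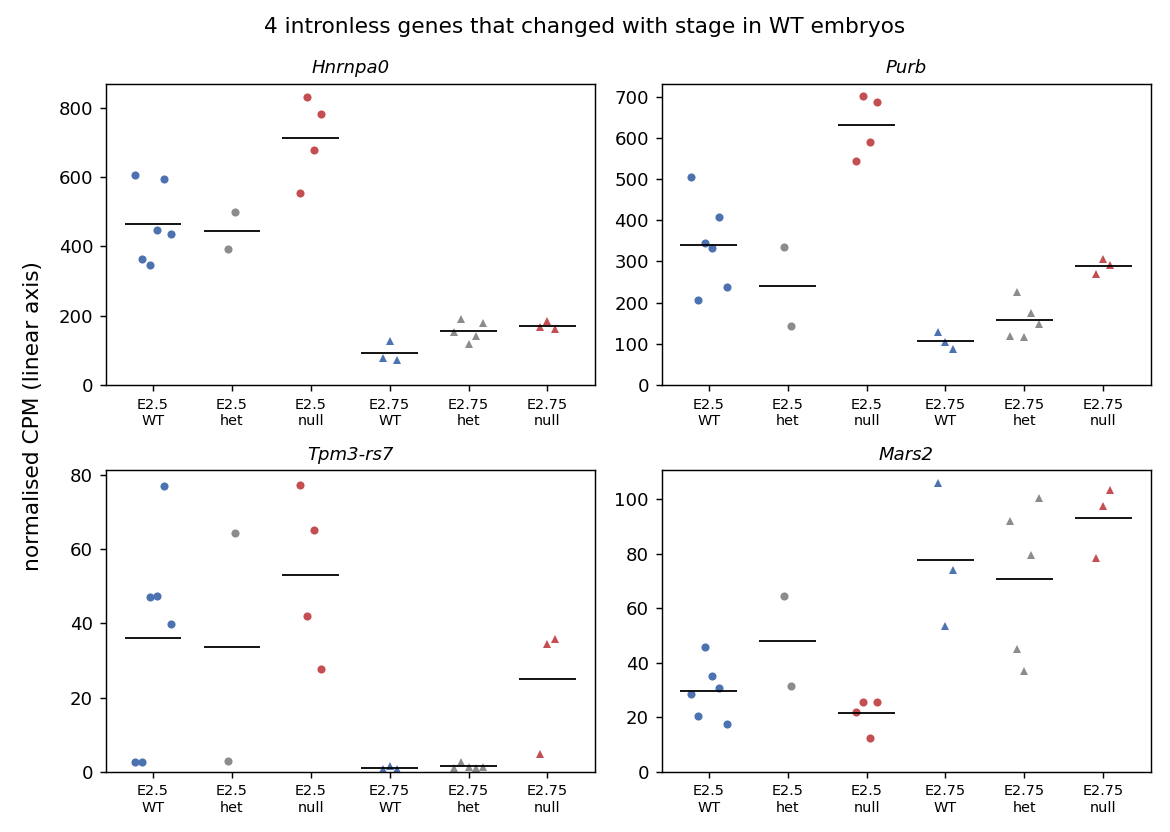
Normalised CPM (y axis, linear) of Hnrnpa0, Purb, Tpm3-rs7 and Mars2 in single embryos by stage and genotype (x axis), 1 point per embryo with a line at the group mean. In WT embryos Hnrnpa0 is at 346 to 606 CPM at E2.5 and 71.3 to 128 at E2.75, while Mars2 is higher at E2.75.

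POU6F1 peaks in mESCs lay at the starts of many of these genes. A peak called in both ChIP replicates against the IgG control of the same transfected cells lay within 1 kb of a start in 66 of the 97 genes (68.0%, exact binomial 95% interval 57.8% to 77.1%). Of spliced coding genes 79.0% had one. Any annotated start of a gene counted, so a gene with more annotated starts had more chances of a peak, and the shares were not corrected for this. Against the mCherry ChIP of cells transfected with mCherry alone the shares were 23.7% and 30.2%, and within 5 kb of the start they were 73.2% and 81.4% for the IgG control. The cells and the embryos are different material, the intervals cover counting error only, and no test was made. Among the 13 called members 11 had a peak, and among the other 84 members 55.

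The summits sat close to the starts. Over the 66 genes the median summit lay at −46.5 bases, and 44 were within 250 bases. The MACS2 fold enrichment in replicate 1 had a median of 13.9 and ranged from 6.86 to 48.6. It was highest at Dolk, which makes dolichol phosphate, at 48.6, then Exoc8, of the exocyst, at 39.8 and Otud1, a deubiquitinase, at 34.0. None of these 3 genes was called in embryos, with log2 fold changes of 0.47 ± 0.38, −0.63 ± 0.52 and −0.65 ± 0.43 (SE each). Mageb3 had a peak of 29.2-fold and Eid2b of 24.2-fold, while Gm37596 and Rnf113a2 had none in this list.

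RefSeq promoters of GRCm38.p6, from 250 bases before to 50 after the start, were matched by symbol for 72 members. The octamer ATGCAAAT, searched on both strands, was in 0 of them and in 1.97% of all 27025 promoters. The letters TATAAA were in 4 (5.56%, against 15.7% of all promoters and 7.93% of those of spliced coding genes), CCAAT in 40.3% (41.1% of all) and GGGCGG in 58.3% (38.2% of all and 71.2% of spliced coding genes). The exons of the members had a median length of 2147 bases, from 531 in Gm5617 to 11294 in Mars2, shorter than the 3133 bases of spliced coding genes, and a median GC content of 51.9%, against 49.6%.

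Per kilobase of exon, Cldn4 was the most abundant of the genes named here at 555 normalised CPM per kb, followed by Sfn at 365, Pcbp1 at 278, Imp3 at 214, Hnrnpa0 at 132, Mcts2 at 124, Utp3 at 101 and 0610012G03Rik at 100.3. Sfn ranged between 185 and 900.2 CPM in WT embryos, between 289 and 838 in het embryos and between 461 and 1398 in null embryos, and its log2 fold change against het was 0.38 ± 0.34 (SE), not called. 0610012G03Rik, which starts 19 bases from the cap-binding gene Ncbp2, changed by 0.49 ± 0.31 (SE), not called.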

How the data were processed

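The authors deposited 1 table per embryo of raw counts per gene, made with Cutadapt 3.4, STAR 2.7.8a on GRCm38 and HTSeq 0.11.4 without strand in its strict intersection mode. For the ChIP-seq, the authors used Bowtie2 2.4.4, MACS2 2.2.7.1 and BEDtools 2.30.0, and the deposited narrowPeak files give for each replicate and control a score, a fold enrichment and −log10 p and q values. Peaks were called against IgG and, in a second version, against the mCherry ChIP of cells transfected with mCherry.

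Members were found with the GENCODE vM21 annotation. The members and the gene lists were chosen with earlier results of these data known. Counts were tested in R 4.3.3 with edgeR 4.0.16 (TMM, filterByExpr, quasi-likelihood, 3 genotypes in 1 fit, stages merged, Benjamini-Hochberg over all genes), and called at adjusted p under 0.1 and over 2-fold. DESeq2 1.42.0 was an alternative. Copies were found with BLAST 2.17.0. Named genes were the 12 largest changes among members called against het and up to 3 per direction in each other comparison. To these were added the 8 most abundant members, the 3 nearest the floor and the 3 strongest peaks. Genes were also named from the lists of early response, heat shock, early embryo transcription factor, variant and linker histone, junction, and RNA and ribosome genes. Ddx28, Chmp1b, Klhl9, Sephs2, Zrsr1, Tspyl1, 4930518I15Rik and the neighbours were named after their values were seen. The procedure was tested on simulated data. The values of 1 further early response gene are not reported here.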

Additional observations from a re-analysis of the deposited data

Results flagged for a closer look

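In groups of 4 to 10 embryos, 42 checks for a single embryo far from the others were made by Dixon's criterion, on the 12 called genes of largest change, the summed share of the members and Dis3, and chance alone would mark about 5% of such groups. In normalised CPM, Gm9887 was marked in E2.5 WT replicate 4 at 3.89, 2310039H08Rik in E2.75 het replicate 2 at 19.9, Sft2d3 in E2.75 het replicate 2 at 13.9, B3galt6 in E2.75 het replicate 3 at 49.7, Eid2b in E2.5 WT replicate 2 at 26.7, and Mocs3 in E2.5 WT replicate 4 at 46.6 and in E2.75 het replicate 2 at 49.1. All were high values in WT or het embryos, and E2.75 het replicate 2 accounts for 3 of the 7. It also had the largest member share of counts outside the null embryos, 0.772%, on 3009380 counts.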

How the results depend on the processing

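Against het, 6 of the 13 calls (Mageb3, Gm9887, Gm9958, 2310039H08Rik, Sft2d3 and Gm37596) were kept under every alternative and 10 under all but spike-in scaling. With ERCC scaling, members called higher and lower were 6 and 20 against het, 8 and 1 against WT, 1 and 10 against het at E2.5, 7 and 5 against het at E2.75, and 8 and 2 for stage in WT. Against WT they were 1 and 0 at E2.5 and 10 and 0 at E2.75. All genes called higher and lower on that scale were 2.15% and 33.4% against het, 2.36% and 3.5% against WT, 0.245% and 12% against het at E2.5, 2.29% and 15.0% against het at E2.75, and 17.2% and 0.316% for stage. The log2 fold change against het turned negative there for Tdpoz2 (−0.071), Pcbp1 (−0.15), Pigm (−0.41), Hnrnpa0 (−0.28), Sfn (−0.68), Imp3 (−0.42), Utp3 (−0.60), 0610012G03Rik (−0.70), Foxe1 (−0.52), H1f0 (−0.21), Gm7102 (−0.86) and Dolk (−0.54). The cause was not tested. DESeq2 called 13 higher and 1 lower against het at E2.5, 15 and 1 against WT at E2.5, 24 higher against WT at E2.75, 1 lower against WT with stages combined and 2 higher with stage. It called 3% of genes with an adjusted p higher against het at E2.5. Against WT with stages combined, it called 477 of 33616 genes lower. Without a low-count filter, 1 was called higher against het at E2.5, 8 against WT at E2.5 and 1 lower against WT at E2.75. With stages combined, 15 members and 7.95% of all genes were called higher against WT without the filter. The other counts by DESeq2 and without the filter stand without a share of all genes and cannot be compared with one. The 60 members that overlap no other gene gave 6 called higher against het and 9 against WT, where 3.67% and 3.66% of all genes were. Without the 2 smallest null libraries, an alternative added after the data were seen, 1 (Jun) was lower against het, where 411 of 13415 genes were.

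Leaving out 1 embryo gave 12 to 17 higher and 0 to 1 lower against het, 11 to 17 higher against WT, 6 to 15 against het at E2.75, 1 to 4 against WT at E2.5, 4 to 10 against WT at E2.75, and 4 to 12 lower and 0 to 2 higher with stage. Shares of all genes in these fits are not given here. Gm7102 ranged from −0.23 to 2.82 and Zfp830 from −0.33 to 0.027. Cldn4 was at 0.051 with the replicate block and Zfp830 at 0.043 with stage as a term. Replicate numbers only name embryos: correlations of same-numbered embryos were −0.11 to 0.08 over 17 pairs. With the replicate block 11 members were called higher against het and 16 against WT, where 1.61% and 2.88% of all genes were. POU6F1 shares were 23.7% with the mCherry or both controls and 82.5% in replicate 1 alone. Shares of counts without the 3 most abundant members were 0.344%, 0.372% and 0.529%. Libraries went down to 1690192 counts, and what depth limits was not tested.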
